A study of Mus musculus with 9 samples.

Results

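Complement transcripts were followed in unstimulated macrophages with and without functional C/EBPδ. The set holds 9 genes, matched by symbol to the gene identifiers of the count lists, of 55487 identifiers in all. They are the 3 chains of C1q (C1qa, C1qb, C1qc), the components C2 and C3, factor B (Cfb), properdin (Cfp) and the receptors for C3a and C5a (C3ar1, C5ar1). The cells were RAW264.7, a mouse macrophage line, grown without any stimulus and sequenced as wild-type, C/EBPδ knock-out (CEBPD KO) and ΔTAD (CEBPD TAD mutant) macrophages, with 3 libraries per genotype. C/EBPδ is a transcription factor of the CCAAT/enhancer-binding protein family. In knock-out macrophages both alleles of its gene, Cebpd, carry an out-of-frame CRISPR/Cas9 deletion, whereas in ΔTAD macrophages the deletion removes the transactivation domain and leaves the DNA-binding part of the protein. All 3 genotypes are variants of 1 cell line, and edited cells were expanded from single cells. The design text speaks of independent clones, but the labels of the single libraries do not say which clone each one is, so p-values measure the spread between these libraries only.

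Complement is a cascade of plasma proteins that marks microbes and dying cells for uptake. C1q recognises bound antibody and apoptotic surfaces and starts the classical pathway, in which C2 supplies the protease of the C3 convertase. In the alternative pathway factor B takes the place of C2, and properdin holds the convertase together. Both convertases cleave C3, the hub of the cascade. The fragments C3a and C5a then attract and activate myeloid cells through the G-protein-coupled receptors C3ar1 and C5ar1. The liver makes most of the circulating components, whereas macrophages are a known local source of C1q, C3, factor B and properdin and carry both receptors.

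Each library held 16113306 to 20981829 counts on genes, and 3 counts, taken as the floor of detection, corresponded to 0.143 CPM in the deepest and 0.186 CPM in the shallowest library. CPM express counts relative to the library total, as it is for this floor and for the cell type markers, and after TMM scaling for the complement genes. Cebpd itself had 70 to 130 counts in the 9 libraries, the knock-out libraries included, and was not called in any comparison. The deletions leave most of its transcript in place, so these counts do not check the labels. Of 10 macrophage markers, all but Mertk were above the floor, and their summed level was 3585 to 3763 CPM in wild-type, 4668 to 5060 CPM in knock-out and 6411 to 7291 CPM in ΔTAD libraries. The 4 hepatocyte, the 4 B-cell and the 4 fibroblast markers were at or under the floor in every library, as were 3 of the 4 T-cell, neutrophil and dendritic cell markers each. The summed levels of those last lists were at most 0.288, 1.43 and 1.71 CPM. A sum gives abundant markers the most weight and does not show that each of the 10 rose. Itgam, 1 of them, was not called in any comparison. The part of the higher summed level in the differences below was not tested. One library stood apart. ΔTAD replicate 1 gave 11.0% of its counts to the single gene CT010467.1, against 0.303% to 1.16% in the other libraries. Results for ΔTAD macrophages are therefore also given without it.

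Because C/EBPδ is the factor that was altered, the promoters of the members were read for short elements that C/EBP family members are known to bind. RefSeq windows on GRCm38.p6, from 250 bases before to 50 bases after the annotated start, were at hand for 6 of the 9 members (C1qb, C1qc, C3, Cfp, C3ar1 and C5ar1), and C1qa, C2 and Cfb had no entry. The windows printed here are those of the 3 members with the largest differences between genotypes, all on the minus strand and written 5′ to 3′: C3 at chr17:57228087-57228386, C5ar1 at chr7:16259289-16259588 and Cfp at chrX:20931506-20931805. Capitals mark matches, on either strand, to the C/EBP-type pattern TTNCNNAA and to the CCAAT box (CCAAT).
C3: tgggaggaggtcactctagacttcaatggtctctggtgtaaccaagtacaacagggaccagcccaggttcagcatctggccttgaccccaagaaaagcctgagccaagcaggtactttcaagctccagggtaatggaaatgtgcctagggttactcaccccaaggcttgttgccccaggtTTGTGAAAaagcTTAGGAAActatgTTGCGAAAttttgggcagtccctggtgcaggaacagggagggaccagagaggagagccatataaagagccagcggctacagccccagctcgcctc
C5ar1: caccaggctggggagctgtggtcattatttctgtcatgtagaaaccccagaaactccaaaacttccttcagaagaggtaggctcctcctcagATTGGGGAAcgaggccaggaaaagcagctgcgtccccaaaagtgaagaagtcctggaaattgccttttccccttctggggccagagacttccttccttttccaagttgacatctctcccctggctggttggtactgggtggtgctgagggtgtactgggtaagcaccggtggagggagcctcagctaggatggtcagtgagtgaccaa
Cfp: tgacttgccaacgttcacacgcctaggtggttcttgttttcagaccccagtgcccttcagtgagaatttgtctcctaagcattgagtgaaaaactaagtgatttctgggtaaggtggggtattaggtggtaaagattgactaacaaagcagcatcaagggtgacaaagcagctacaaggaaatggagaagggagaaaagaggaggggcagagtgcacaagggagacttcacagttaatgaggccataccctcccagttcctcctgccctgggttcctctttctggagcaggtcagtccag
The C3 window held 3 C/EBP-type matches close to the start, TTGTGAAA at positions -70 to -63, TTAGGAAA at -58 to -51 and TTGCGAAA at -45 to -38, the last of which reads as a match on both strands. Of 32851 mouse promoter windows of the same length, 40.7% held at least 1 such match and 3.6% held at least 3. In the C5ar1 window a CCAAT box on the other strand (ATTGG, -158 to -154) overlapped a C/EBP-type match (TTGGGGAA, -157 to -150), and 37.4% of all windows held a CCAAT box. The windows of Cfp, C3ar1 and C1qb had neither pattern, and that of C1qc had 1 C/EBP-type match (TTCTGGAA, -81 to -74). The only match to GAGGAAG, a pattern bound by the myeloid factor PU.1 that 13.6% of windows held, was in C1qc (CTTCCTC, -194 to -188). These matches describe letters and not binding.

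RAW264.7 macrophages of all genotypes lacked detectable C1q transcripts. C1qa and C1qc, which lie beside C1qb on the minus strand of chromosome 4 of GRCm38 (C1qa at chr4:136895917-136898803, ENSMUSG00000036887), had 0 counts in all 9 libraries. C1qb had 1 count in knock-out replicate 2 and 0 in the other libraries. A count of 0 allows a level of up to 0.143 to 0.186 CPM, for counting error only. The 3 genes share no annotated exon bases with other genes, so reads on them had no second gene to be assigned to. None was tested, and no difference between genotypes was detectable at this depth.

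Factor B, the protease of the alternative convertase, was also at 0 counts in every library, but its value carries a limit. Cfb (chr17:34856374-34862518, ENSMUSG00000090231) shares 2246 of its 2825 annotated exon bases with Gm20547, a read-through gene on the same strand that spans Cfb and part of C2 and itself had 0 counts. Reads on the shared bases can be set aside as ambiguous, depending on how the counting was set, and 0.974% to 1.24% of the records of a library were. Only 20.5% of the exon bases of Cfb, 579 in all, belong to it alone.

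C2 (chr17:34862604-34898265, ENSMUSG00000024371), the classical counterpart of factor B, was low and did not differ detectably between genotypes. It had 24, 32 and 36 counts in wild-type, 39, 35 and 43 in knock-out and 37, 30 and 44 in ΔTAD libraries. The 3 groups overlapped. Their levels were 1.74 ± 0.501, 2.20 ± 0.205 and 2.04 ± 0.576 CPM (SD, n = 3). The log2 difference from wild-type was 0.36 in knock-out (95% interval -0.11 to 0.83, adjusted p = 0.22) and 0.21 in ΔTAD macrophages (-0.27 to 0.69, adjusted p = 0.47). The same gene Gm20547 covers 1656 of its 3872 exon bases, so its counts come from the remainder at best.

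C3 (chr17:57203970-57228136, ENSMUSG00000024164), the component on which both pathways converge, was barely detected in wild-type macrophages and rose in both mutants. Its counts were 28, 17 and 26 in wild-type, 116, 96 and 108 in knock-out and 63, 85 and 79 in ΔTAD libraries. After TMM scaling, these were 1.40, 0.984 and 1.57 CPM in wild-type and 6.12, 5.80 and 6.12 CPM in knock-out libraries. In ΔTAD libraries they were 4.41, 4.08 and 3.76 CPM. The 3 groups did not overlap, with wild-type lowest and knock-out highest. C3 was 4.55-fold higher in knock-out than in wild-type macrophages (log2 difference 2.18 ± 0.172, SE; adjusted p = 7.1e-11). In ΔTAD macrophages it was 3.06-fold higher than in wild-type (1.61 ± 0.184, adjusted p = 4.4e-08). Knock-out exceeded ΔTAD macrophages 1.48-fold (0.57 ± 0.135, adjusted p = 0.00142), a call that was lost without ΔTAD replicate 3 (0.51, adjusted p = 0.0125). In bulk RNA, more expressing cells and more transcript per cell cannot be told apart, here and for the genes below. The C3 promoter was the window with the 3 C/EBP-type matches, and any part of these matches in the C3 difference was not tested.

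C3 lies on a chromosome that moved as a whole, and its rise has to be read beside that. The 746 tested genes of chromosome 17 had a median log2 difference from wild-type of 0.48 (knock-out) and 0.50 (ΔTAD), whereas the median over the chromosomes other than 12 and 17 was -0.01 in both. On chromosome 12 the medians were -0.52 and -0.54. Of the 33 tested genes within 1 Mb of C3, 29 were called higher and 0 lower in knock-out macrophages, and 28 higher and 0 lower in ΔTAD macrophages. Their median log2 differences were 0.46 and 0.59. Relative to the chromosome median, C3 was higher by 1.70 in the knock-out comparison and by 1.12 in the ΔTAD comparison, and 1.07% and 3.49% of the chromosome's genes lay above it. C2, by contrast, sat 0.13 and 0.29 below the chromosome median on the log2 scale (-0.13 and -0.29). Between knock-out and ΔTAD macrophages the median over chromosome 17 was -0.03. The part of the chromosome's shift in the C3 difference was not tested.

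**Figure D1:**
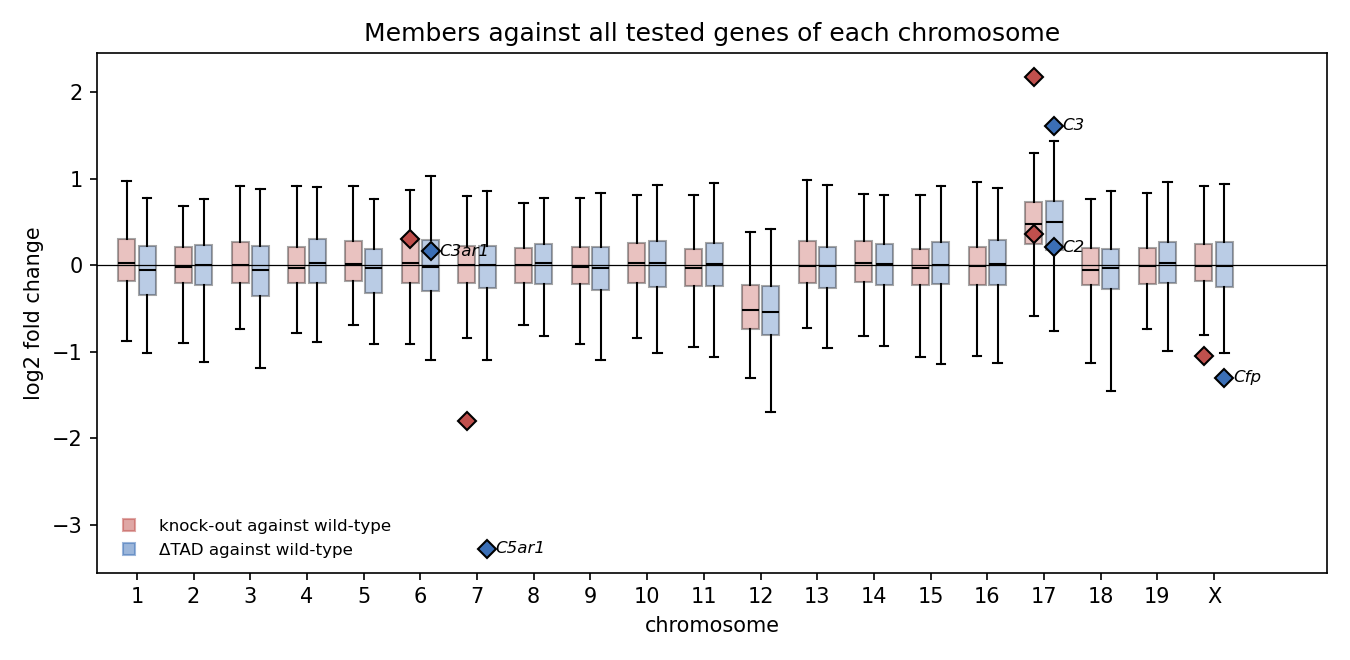
Log2 fold change (vertical axis) of all tested genes by chromosome, for knock-out (red) and ΔTAD (blue) against wild-type macrophages. Boxes span the quartiles with the median as a line, whiskers run from the 5th to the 95th percentile, and diamonds mark the 5 tested members; C3 lies above and C5ar1 and Cfp lie below the whiskers of their chromosomes in both comparisons.

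Properdin was the most abundant member, and it fell in both mutants. Cfp (chrX:20925454-20931555, ENSMUSG00000001128), which encodes the stabiliser of the alternative convertase, had 4907, 4313 and 3904 counts in wild-type, 2176, 1926 and 2142 in knock-out and 1300, 2042 and 2239 in ΔTAD libraries. After scaling, the level was 244 ± 6.67 CPM in wild-type, 117 ± 3.46 CPM in knock-out and 98.5 ± 7.82 CPM in ΔTAD macrophages (SD, n = 3). Every mutant library was below every wild-type library, and the ΔTAD libraries were below the knock-out libraries. Cfp was 2.07-fold lower in knock-out (log2 difference -1.05 ± 0.0436, SE; adjusted p = 3.4e-16) and 2.47-fold lower in ΔTAD (-1.30 ± 0.0440, adjusted p = 5.0e-18) than in wild-type macrophages. Knock-out was 1.19-fold above ΔTAD (0.25 ± 0.0452, adjusted p = 8.5e-05). The 17 tested genes within 1 Mb of Cfp had median log2 differences from wild-type of 0.01 and -0.13, and 3.59% of X-linked genes lay below Cfp in each comparison.

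The C5a receptor showed the largest difference of the set. C5ar1 (chr7:16246743-16259540, ENSMUSG00000049130) encodes the chemotactic receptor of macrophages and neutrophils for C5a. It had 665, 579 and 499 counts in wild-type, 186, 158 and 151 in knock-out and 41, 60 and 86 in ΔTAD libraries. The levels were 33.2, 33.5 and 30.2 CPM in wild-type, 9.81, 9.55 and 8.56 CPM in knock-out and 2.87, 2.88 and 4.09 CPM in ΔTAD libraries. The 3 groups were far apart, and here the ΔTAD libraries were the lowest. C5ar1 was 3.47-fold lower in knock-out (-1.80 ± 0.0857, SE; adjusted p = 5.6e-15) and 9.70-fold lower in ΔTAD (-3.28 ± 0.104, adjusted p = 1.4e-18) than in wild-type macrophages. Tested directly, it was 2.79-fold higher in knock-out than in ΔTAD macrophages (1.48 ± 0.130, adjusted p = 2.2e-09). Of the 29 tested genes within 1 Mb, 8 were called lower and 1 higher in knock-out macrophages, with a median log2 difference of -0.13. In ΔTAD macrophages 5 were lower and 6 higher, with a median of -0.01. Of all tested genes on the chromosome, 1.47% and 0.645% lay below C5ar1.

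The C3a receptor moved the other way and by little. C3ar1 (chr6:122847138-122856161, ENSMUSG00000040552) had 2656, 2243 and 2118 counts in wild-type, 2972, 2691 and 2842 in knock-out and 2075, 3094 and 2993 in ΔTAD libraries. Its levels were 132, 130 and 128 CPM in wild-type, 157, 163 and 161 CPM in knock-out and 145, 149 and 142 CPM in ΔTAD libraries. The groups did not overlap, with ΔTAD between the others. C3ar1 was 1.23-fold higher in knock-out (0.30 ± 0.0339, SE; adjusted p = 4.9e-08) and 1.12-fold higher in ΔTAD (0.16 ± 0.0340, adjusted p = 2.7e-04) than in wild-type macrophages. Knock-out exceeded ΔTAD macrophages 1.10-fold (0.14 ± 0.0336, adjusted p = 0.00166). The difference of ΔTAD from wild-type depended on the scaling, since with library size alone it was 0.07 (adjusted p = 0.35). Without ΔTAD replicate 3 the difference between the mutants was 0.12 (adjusted p = 0.0138).

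**Figure D2:**
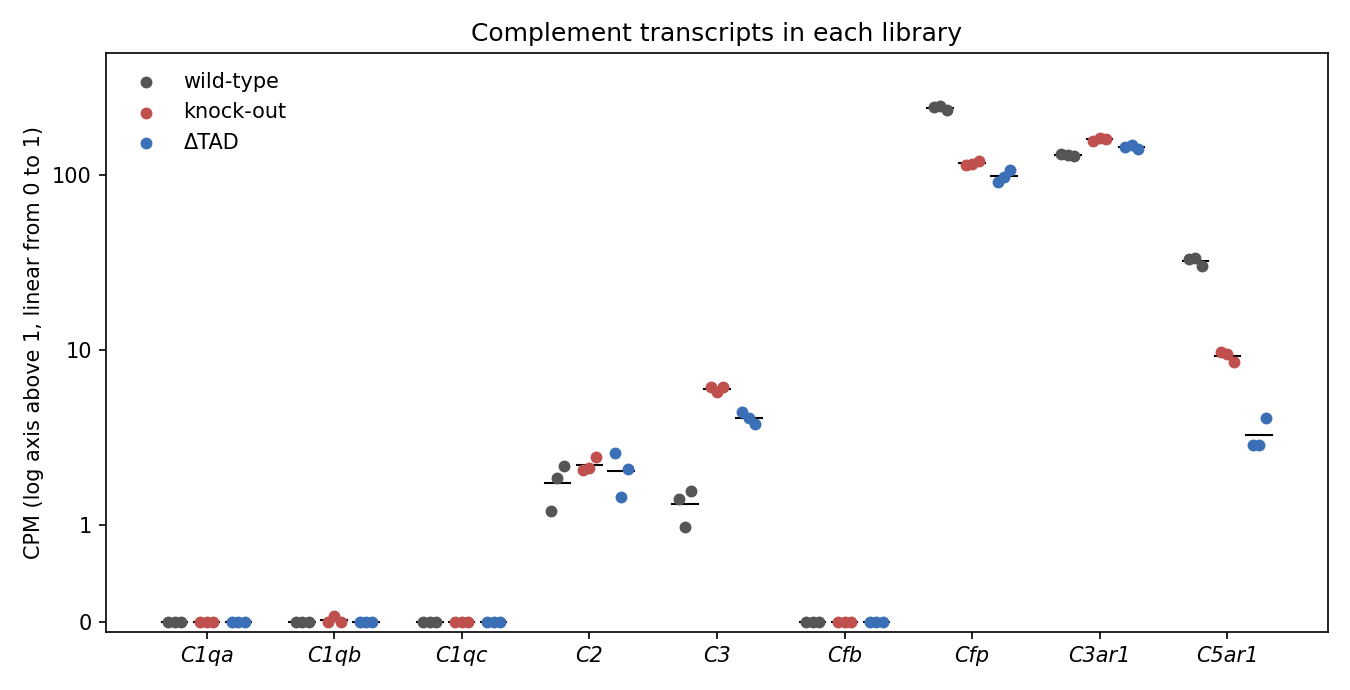
Level of each member in every library, in CPM on an axis that is logarithmic above 1 and linear from 0 to 1, with points for the 3 libraries of each genotype and a line at their mean. The C1q chains and Cfb lie at or near 0, Cfp and C5ar1 are highest in wild-type libraries, C3 is lowest in them, and C2 overlaps between genotypes.

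The members detected thus changed in both directions within each mutant. Of the 9 members, 5 passed the filter on low counts (C2, C3, Cfp, C3ar1 and C5ar1), each with at least 17 counts in every library. Against wild-type, 2 were called higher (C3, C3ar1), 2 lower (Cfp, C5ar1) and 1 neither (C2) in knock-out macrophages. Among all 14312 genes tested, 22.8% were called higher and 22.4% lower in that comparison. The calls in ΔTAD macrophages fell on the same members in the same directions, beside 26.3% of all genes higher and 23.4% lower. Both comparisons use the same wild-type libraries. Knock-out against ΔTAD gave 4 members higher (C3, Cfp, C3ar1, C5ar1) and 0 lower, beside 13.9% of all genes higher and 19.1% lower. With library size alone as the scaling, the share of higher genes among all calls went from 52.9% to 39.6% in ΔTAD against wild-type and from 42.1% to 69.0% in knock-out against ΔTAD. The members are too few to set their share against that of all genes. For C3 and C3ar1 the ΔTAD level lay between those of wild-type and knock-out macrophages, and for Cfp and C5ar1 it lay beyond that of the knock-out.

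Without ΔTAD replicate 1, the library that stood apart, the log2 differences of ΔTAD from wild-type macrophages were 1.54 for C3, -1.28 for Cfp, 0.13 for C3ar1 and -3.24 for C5ar1. Those of knock-out against ΔTAD were then 0.64, 0.23, 0.16 and 1.44. All 8 kept their calls.

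**Figure D3:**
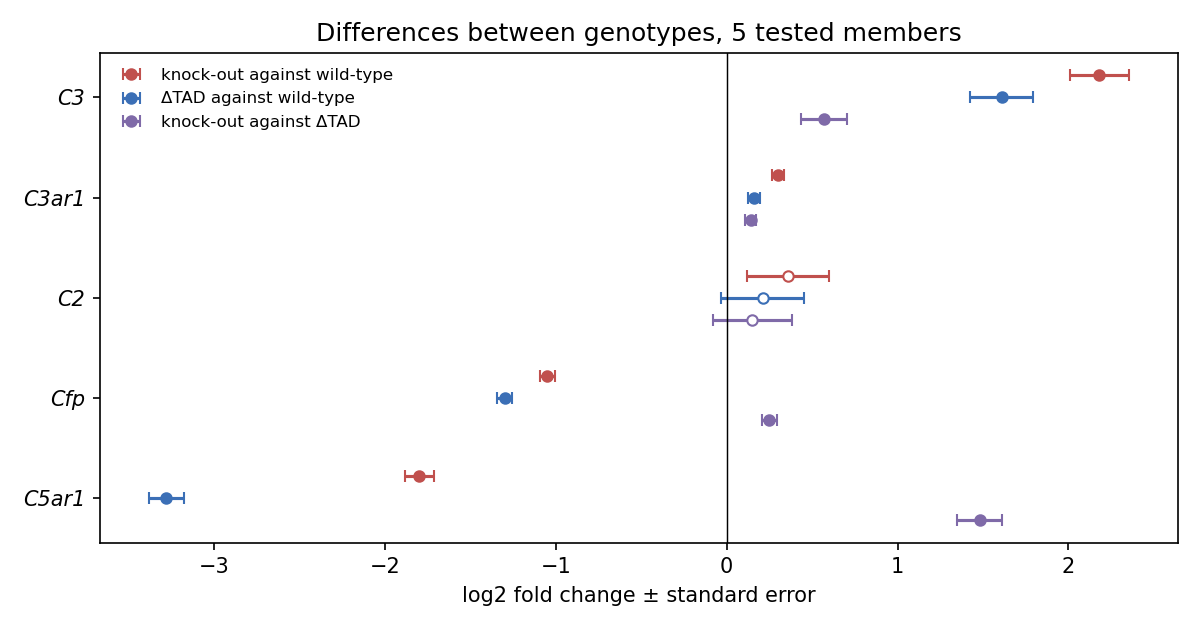
Log2 fold change with its standard error for the 5 tested members in the 3 comparisons, filled where the adjusted p was under 0.01 and open where it was not. C3 and C3ar1 lie right of 0 and Cfp and C5ar1 left of it against wild-type, all 4 lie right of 0 in knock-out against ΔTAD, and C2 is open throughout.

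Per kilobase of exon, which allows levels of different genes to be compared, properdin led in all genotypes with 140 CPM per kb in wild-type macrophages, 67.7 in the knock-out and 56.7 in the ΔTAD. C3ar1 followed with 30.2, 37.2 and 33.8 CPM per kb. C5ar1 was next with 12.6, 3.62 and 1.28 CPM per kb. The last places changed hands. C2 exceeded C3 in wild-type macrophages (0.450 against 0.256 CPM per kb), whereas C3 exceeded C2 in knock-out (1.17 against 0.569) and in ΔTAD macrophages (0.794 against 0.527). The ranges of neighbours in this order did not overlap, but the lowest C2 library and the highest C3 library of wild-type macrophages were nearly level at 0.309 and 0.306 CPM per kb. In ΔTAD macrophages the lowest C5ar1 library was at 1.12 CPM per kb and the highest C3 library at 0.857. The C2 values divide by all of its exon bases. Over the 2216 bases that it does not share on its strand, C2 would lie at 0.786, 0.994 and 0.921 CPM per kb, which puts it above C3 in wild-type macrophages and below C3 in the knock-out. In ΔTAD macrophages it would then lie above C3 with overlapping ranges (0.650 to 1.17 against 0.731 to 0.857), so the ΔTAD order of C2 and C3 depends on the bases counted.

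The balance of the anaphylatoxin receptors shifted accordingly. Taken within each library, where scaling has no part, there were 3.99, 3.87 and 4.24 counts of C3ar1 for each count of C5ar1 in wild-type macrophages. The ratio was 16.0 to 18.8 in knock-out libraries, and 50.6, 51.6 and 34.8 in ΔTAD libraries. Means were 4.04 ± 0.189, 17.3 ± 1.44 and 45.7 ± 9.41 (SD, n = 3), and the 3 groups were separate, with ΔTAD replicate 3 the lowest of its group. The ratio of properdin to C3 counts moved the opposite way, from 193 ± 54.0 in wild-type to 19.6 ± 0.696 in knock-out and 24.3 ± 3.86 in ΔTAD macrophages. Knock-out and ΔTAD libraries, at 18.8 to 20.1 and 20.6 to 28.3, were close together in this second ratio.

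**Figure D4:**
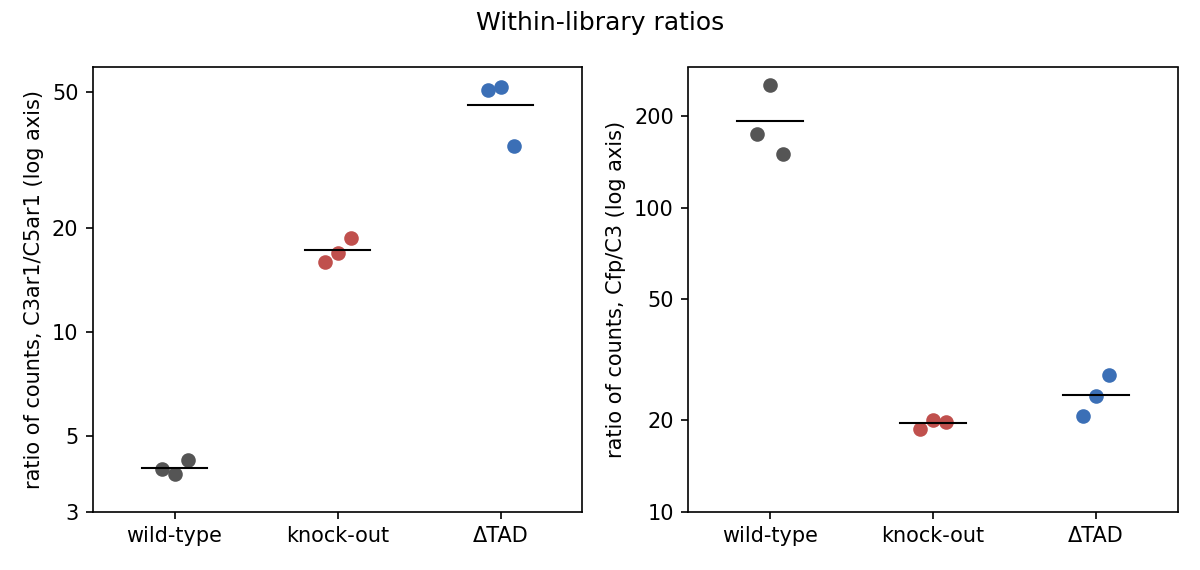
Ratio of counts within each library, on log axes, for C3ar1 over C5ar1 (left) and Cfp over C3 (right), with points for the 3 libraries of each genotype and a line at their mean. The first ratio rises from wild-type (3.87 to 4.24) through knock-out to ΔTAD (34.8 to 51.6), and the second is highest in wild-type (150 to 254).

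The rest of the complement system was listed as 49 further genes, of which 16 passed the filter on low counts, 21 had no count in any library and 28, those 21 included, had at most 3 counts in every library. None of the 7 genes of the terminal, membrane-attack part was tested, nor factor D (Cfd), the alternative pathway's other protease. Against wild-type, 5 of the 16 were called higher, 5 lower and 6 neither in knock-out macrophages. Of all tested genes, 22.8% were higher and 22.4% lower in that comparison. In ΔTAD macrophages 4 were higher, 6 lower and 6 neither, beside 26.3% of all tested genes higher and 23.4% lower. The median log2 difference of the 16 was 0.01 and -0.13, beside -0.00 for all tested genes in both comparisons. Knock-out against ΔTAD gave 1 higher, 3 lower and 12 neither, beside 13.9% of all tested genes higher and 19.1% lower. The median of the 16 was then -0.07, beside -0.03 for all genes.

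Among the regulators, which protect host cells from the cascade, Clu and Cr1l fell in both mutants. Clu, which encodes clusterin, an inhibitor of the terminal complex, fell from 3.26 CPM in wild-type macrophages, with log2 differences of -2.90 (knock-out) and -2.55 (ΔTAD). Its counts were only 13, 8 and 2 in knock-out and 5, 15 and 11 in ΔTAD libraries. Knock-out replicate 3 was thus under the floor of 3 counts. The knock-out call held in 18 of 18 alternatives, with differences of -3.44 to -2.46. Cr1l, the membrane regulator Crry, fell as well (-0.43 and -0.22). Cd46, a membrane cofactor for C3b cleavage, was called lower in ΔTAD (-0.99, adjusted p = 0.00761) and not in knock-out macrophages (-0.87, adjusted p = 0.0181). The ΔTAD call of Cd46 held in 8 of 18 alternatives only. It was lost, among others, under DESeq2, under the replicate block and without any 1 of the wild-type or ΔTAD libraries. Over all 18 alternatives the difference was -1.08 to -0.86, with adjusted p up to 0.0438. Cd59a, which blocks the terminal complex on membranes, was not called (0.31 and -0.12).

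The complement receptors of the integrin family parted. Itgax, the α chain of complement receptor CR4, was 2.21-fold lower in knock-out and 2.67-fold lower in ΔTAD than in wild-type macrophages (adjusted p = 4.9e-10 and 1.3e-11). Itgam, the α chain of CR3, was not called (-0.16 and -0.14), although only 31.3% of its exon bases belong to it alone. Itgb2, the β chain of both, was called higher by 0.18 and 0.27 on the log2 scale, though not with library size alone as the scaling. Cd93, a surface glycoprotein once described as a C1q receptor, rose by 0.35 and 0.73 and was lower in knock-out than in ΔTAD macrophages (-0.38, adjusted p = 9.1e-04). Its knock-out call was lost in 5 of 19 alternatives, among them DESeq2, library size alone and leaving out wild-type replicate 1, wild-type replicate 2 or knock-out replicate 2. C1qbp, a mainly mitochondrial protein that binds the heads of C1q, fell (-0.39 and -0.29).

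Of the classical and lectin pathway genes, C4b was called in knock-out macrophages (2.29-fold higher, adjusted p = 0.002) and not in ΔTAD macrophages (0.48, adjusted p = 0.234), with a direct difference between the mutants that was not called (0.72, adjusted p = 0.0439). The knock-out call was lost without wild-type replicate 1, wild-type replicate 3 or knock-out replicate 3 (adjusted p up to 0.0206). Its near-identical copy C4a gave 0.92 (adjusted p = 0.0186) and 0.10. Reads that fit both copies can be set aside as not unique, depending on how the counting was set, and 11.78% to 16.28% of the records of a library were. Both copies lie on chromosome 17, and neither had more than 31 counts in a library. Masp2, the lectin pathway protease that cleaves C4 and C2, fell (-1.25 and -2.16) and was 1.88-fold higher in knock-out than in ΔTAD macrophages (adjusted p = 5.7e-04). Only 45.1% of its exon bases are free of annotated genes on either strand, and without the strand setting of the counts its reads cannot be told apart from those of its antisense partner. Colec12, a collectin that serves as a scavenger receptor, rose by 0.31 and 0.43. C1ra and the ficolin gene Fcna were not called in any comparison. For Fcna in ΔTAD against wild-type macrophages (0.29, adjusted p = 0.0226) this depended on ΔTAD replicate 1, the library that stood apart. Of 19 alternatives, 1 called it higher, the fit without that library.

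**Figure D5:**
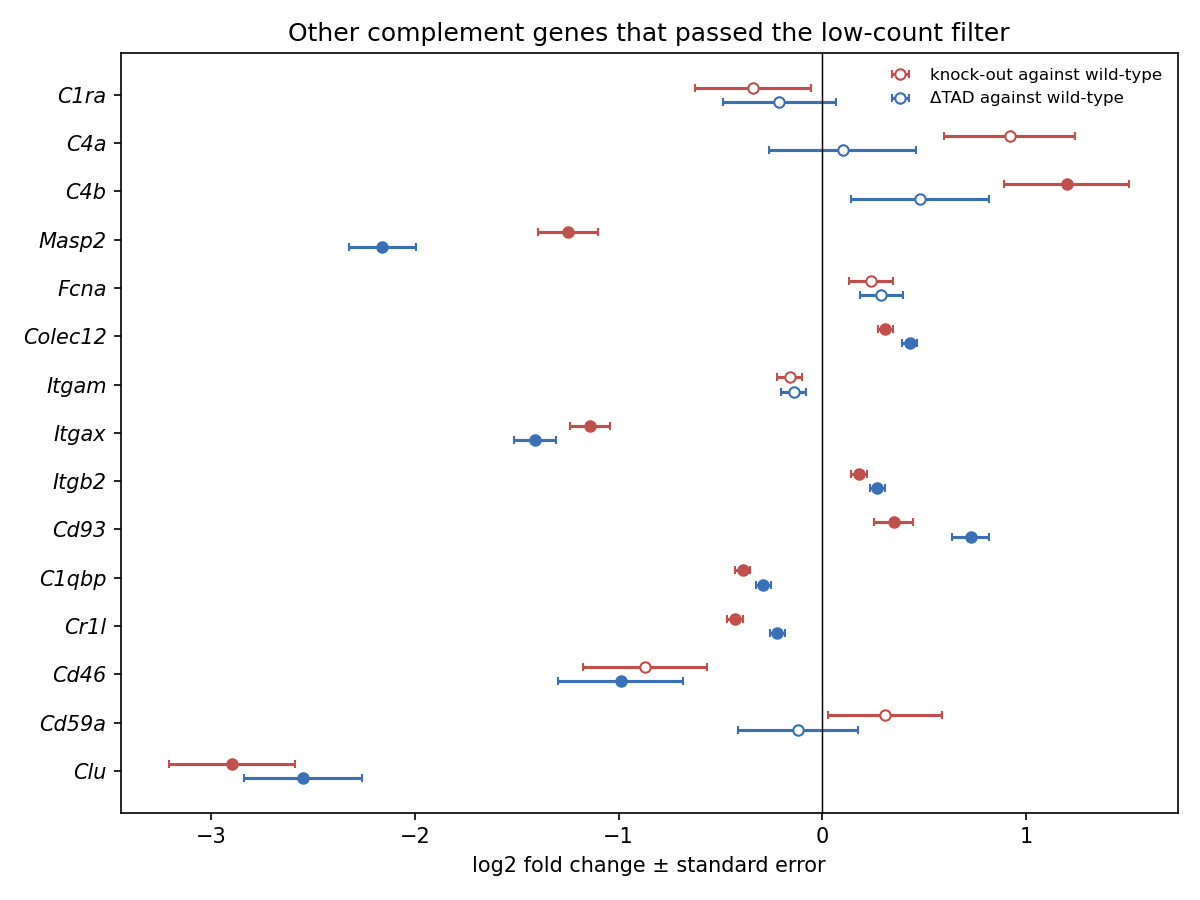
Log2 fold change with its standard error for other complement genes that passed the filter on low counts, in knock-out (red) and ΔTAD (blue) against wild-type macrophages, filled where the adjusted p was under 0.01. Clu, Masp2 and Itgax lie furthest left of 0 among the genes called in both comparisons, and C4b is filled in knock-out only.

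The genes whose profiles over the 9 libraries were most like those of the members were found by the Euclidean distance between centred log2 CPM, among 12701 genes that averaged 1 CPM or more. For C5ar1 these were C030034L19Rik (distance 0.619) and Pecam1 (0.840), which encodes an adhesion molecule of leukocytes and endothelium. Pecam1 averaged 1.01 CPM, just above the cut-off, and had log2 differences from wild-type of -1.97 and -3.78. These differences follow from its choice by likeness to C5ar1 in the same libraries. For C3 they were Map4k3 (0.527), a kinase gene that also lies on chromosome 17, and Unc13b (0.528) on chromosome 4. For Cfp they were Gm43351 (0.135) and Syne3 (0.193), a nuclear envelope gene on chromosome 12. For C3ar1 they were Anxa5 (0.0650), which encodes annexin A5, and Zfp827 (0.0801), and for C2 they were Fbxw17 (0.394) and mt-Atp6 (0.519). Distances are smaller for members that vary less, such as C3ar1 with a range of 0.34 on the log2 scale over the libraries against 3.50 for C5ar1, and are not comparable between members.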

How the data were processed

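Total RNA of RAW264.7 macrophages was depleted of ribosomal RNA before single-read sequencing. The authors used Trimmomatic for trimming, HISAT2 for alignment to GRCm38 and HTSeq for counting. Their versions differ between the submitters' processing notes and the paper's methods. The deposited values are raw counts per gene, 1 list per library. The mode and strand setting of the counting are not given in the sources used here. Genotypes came from the labels, and replicate numbers 1 to 3 from the donor labels. In the sample titles replicate 3 carries the number 4 (wild-type) or 5 (both mutants).

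The test was edgeR's quasi-likelihood test (edgeR 4.0.16, R 4.3.3). Its filterByExpr (minimum count 10, minimum total count 15) kept 14312 genes. Libraries were scaled by TMM (factors 0.888 to 1.03), 1 quasi-likelihood model with a mean per genotype was fitted to all 9 libraries (common biological coefficient of variation 0.0468), and a gene was called where its p, adjusted after Benjamini-Hochberg over all genes tested, was under 0.01. Standard errors are on the log2 scale. Levels of complement genes are TMM-scaled CPM, whereas the floor and the cell type markers use the plain library total; profiles used log2 CPM with a prior count of 2. Positions and exon bases are from GENCODE M21 (GRCm38), which held 55227 of the identifiers, and promoters from RefSeq. The deposited lists of replicates differed by more than sampling noise, so none was counted as a duplicate. Chi-square per gene was 118 in both pairs with ΔTAD replicate 1 and 1.98 to 4.20 in the other pairs. These values do not show whether the libraries come from separate clones. Named are all 9 members, the genes that passed the filter among 49 other complement genes (1 of them enters the counts but is not reported here), genes that overlap a member, and the 2 nearest profiles of each tested member. The members and lists were chosen with earlier results of these data known. As alternatives, limma-voom (limma 3.58.1) and DESeq2 1.42.0 were run, with other scalings, filters and thresholds, fits of 2 genotypes, a replicate block, subtraction of chromosome medians and leaving out each library. The fit was also run on simulated counts, drawn with the same dispersion for every gene. These held no shift of a whole chromosome and no library of unusual composition, so they do not bear on results that depend on the scaling.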

Additional observations from a re-analysis of the deposited data

How the results depend on the processing

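The log2 differences of C3, Cfp and C5ar1 from wild-type kept their direction and call under every test, scaling, filter and left-out library tried. They ranged from 2.03 to 2.31, -1.08 to -1.03 and -1.84 to -1.75 in knock-out and from 1.46 to 1.75, -1.39 to -1.28 and -3.49 to -3.17 in ΔTAD macrophages. C2 was called under no setting. Relative to the chromosome median, C3 was 1.70 and 1.12 and C2 was -0.13 and -0.29. C3ar1 in ΔTAD macrophages was 0.07 (adjusted p = 0.35) with library size only, and 0.13 (adjusted p = 0.00244) when CT010467.1 was left out of that scaling, an alternative chosen after seeing the data. In knock-out against ΔTAD, between 2 and 4 members were called when 1 library was left out, the lowest without ΔTAD replicate 3, where C3 (0.51, adjusted p = 0.0125) and C3ar1 (0.12, adjusted p = 0.0138) lost their calls, and the cause was not tested. The other complement genes called in that comparison, 4 in the report, were 2 with library size only and 9 at an adjusted p under 0.05. Without knock-out replicate 3 they were 6, and over all left-out libraries they were 4 to 6. In ΔTAD against wild-type, the other complement genes called were 4 higher and 6 lower with all libraries. Without ΔTAD replicate 1 they were 5 higher and 5 lower. Summing the counts of C2, Cfb and Gm20547 could not move C2 from 0.36 and 0.21, because Cfb and Gm20547 had 0 counts. Reads set aside as ambiguous were not recovered, so the sum does not address the shared bases.

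Libraries with the same replicate number did not deviate together (correlations -0.072 to 0.02 in 9 pairs by the donor labels, and the same range in the 7 pairs that also share a number in the titles), and the labels do not pair them. With the replicate number as a replicate block, 4 members were called in each comparison, and 10, 9 and 4 other complement genes, Cd46 being the call lost. C5ar1 was then at -1.79 and -3.27. Counts limit C2, C1ra, C4a, C4b, Cd46 and Cd59a, at or under 44 per library. They also limit wild-type C3 (at or under 28), ΔTAD Masp2 (at or under 38) and Clu in both mutants (at or under 15).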

Other observations

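C5ar2, the second C5a receptor gene and the neighbour of C5ar1 on chromosome 7, did not pass the filter on low counts and is named here after its values were seen. It had 14, 10 and 1 counts in wild-type, 0, 0 and 2 in knock-out and 0, 1 and 3 in ΔTAD libraries. Wild-type replicate 3 lay within the range of the mutants. No test was run on it.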
